A study of Mus musculus with 1 sample.

Results

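The data are the 10 genes Notch1, Notch2, Notch3, Notch4, Dll4, Jag1, Jag2, Hes1, Hey1 and Heyl, chosen by symbol from the 32285 genes of a single-cell matrix of the mouse adrenal medulla. They are 4 receptors, 3 ligands and 3 target genes of the Notch pathway. The library came from untreated wild-type mice at postnatal day 15 (P15). It pooled 10 adrenals from 5 mice of mixed sex, with surrounding fat and cortex trimmed by hand, and 10000 viable cells were loaded. There was 1 library and no spread among animals, so no test between cell classes was possible, and every interval below covers counting error only.

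Notch receptors are membrane proteins that bind ligands of the Delta-like and Jagged families on a neighbouring cell. Binding leads to cleavage of the receptor by ADAM proteases and then by the γ-secretase complex. The freed intracellular fragment enters the nucleus and joins RBPJ and Mastermind-like proteins to switch on genes of the Hes and Hey families of transcriptional repressors. The pathway is known for its part in vessel sprouting and arterial identity, in the mural cells around vessels and in glial fates of the neural crest lineage, from which chromaffin cells and their glia-like neighbours, the sustentacular cells, descend.

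Of 11214 barcodes, 10139 passed limits on genes and mitochondrial RNA, with a median of 3567 unique molecular identifiers (UMIs, each marking 1 captured RNA molecule) per cell, and 9456 fell into 14 classes named from marker genes or called by 1 of their leading genes. The medullary classes held 1663 adrenaline, 393 noradrenaline and 136 cycling chromaffin-like cells, 412 transitioning-like cells with markers of both chromaffin and sustentacular cells, and 179 sustentacular-like cells. The others held 1643 non-cycling and 492 cycling endothelial-like, 3794 cortex-like, 655 macrophage-like, 43 lymphocyte-like and 46 stromal-like cells. Cortex-like cells thus made up 37.4% of kept cells after the trimming. The median depth of a class ran from 1116 UMIs in stromal-like to 8174 in cycling cortex-like cells, and was 1149 in sustentacular-like cells. A level is the UMIs of a gene per 1000000 UMIs of the class (CPM), followed in parentheses by an exact 95% Poisson interval. Levels are compared between classes within a gene, never between genes. Chromaffin-like cells named without a type are the adrenaline and noradrenaline classes together, 2056 cells, without the cycling class. Endothelial-like and cortex-like cells named without a type include their cycling classes.

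All 10 genes had UMIs, from 43 for Notch3 to 2992 for Hes1. The endothelial-like classes held 54.2% of the UMIs of Notch1, 67.6% of Notch4, 70.6% of Dll4, 47.4% of Hes1 and 44.9% of Jag2. The cortex-like classes held 80.9% of Notch2 and 65.3% of Jag1, and the adrenaline and noradrenaline chromaffin-like classes held 54.5% of Hey1. Of the 48662062 UMIs of all genes in kept cells, these 3 groups held 5676705, 24935560 and 8661359, in that order. A share of a gene therefore also reflects how many UMIs a group held. The sustentacular-like class was 1.77% of cells and held 20.3% of the UMIs of Heyl. The transitioning-like class, 4.06% of cells, held more of them, 48 of 118.

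**Figure D1:**
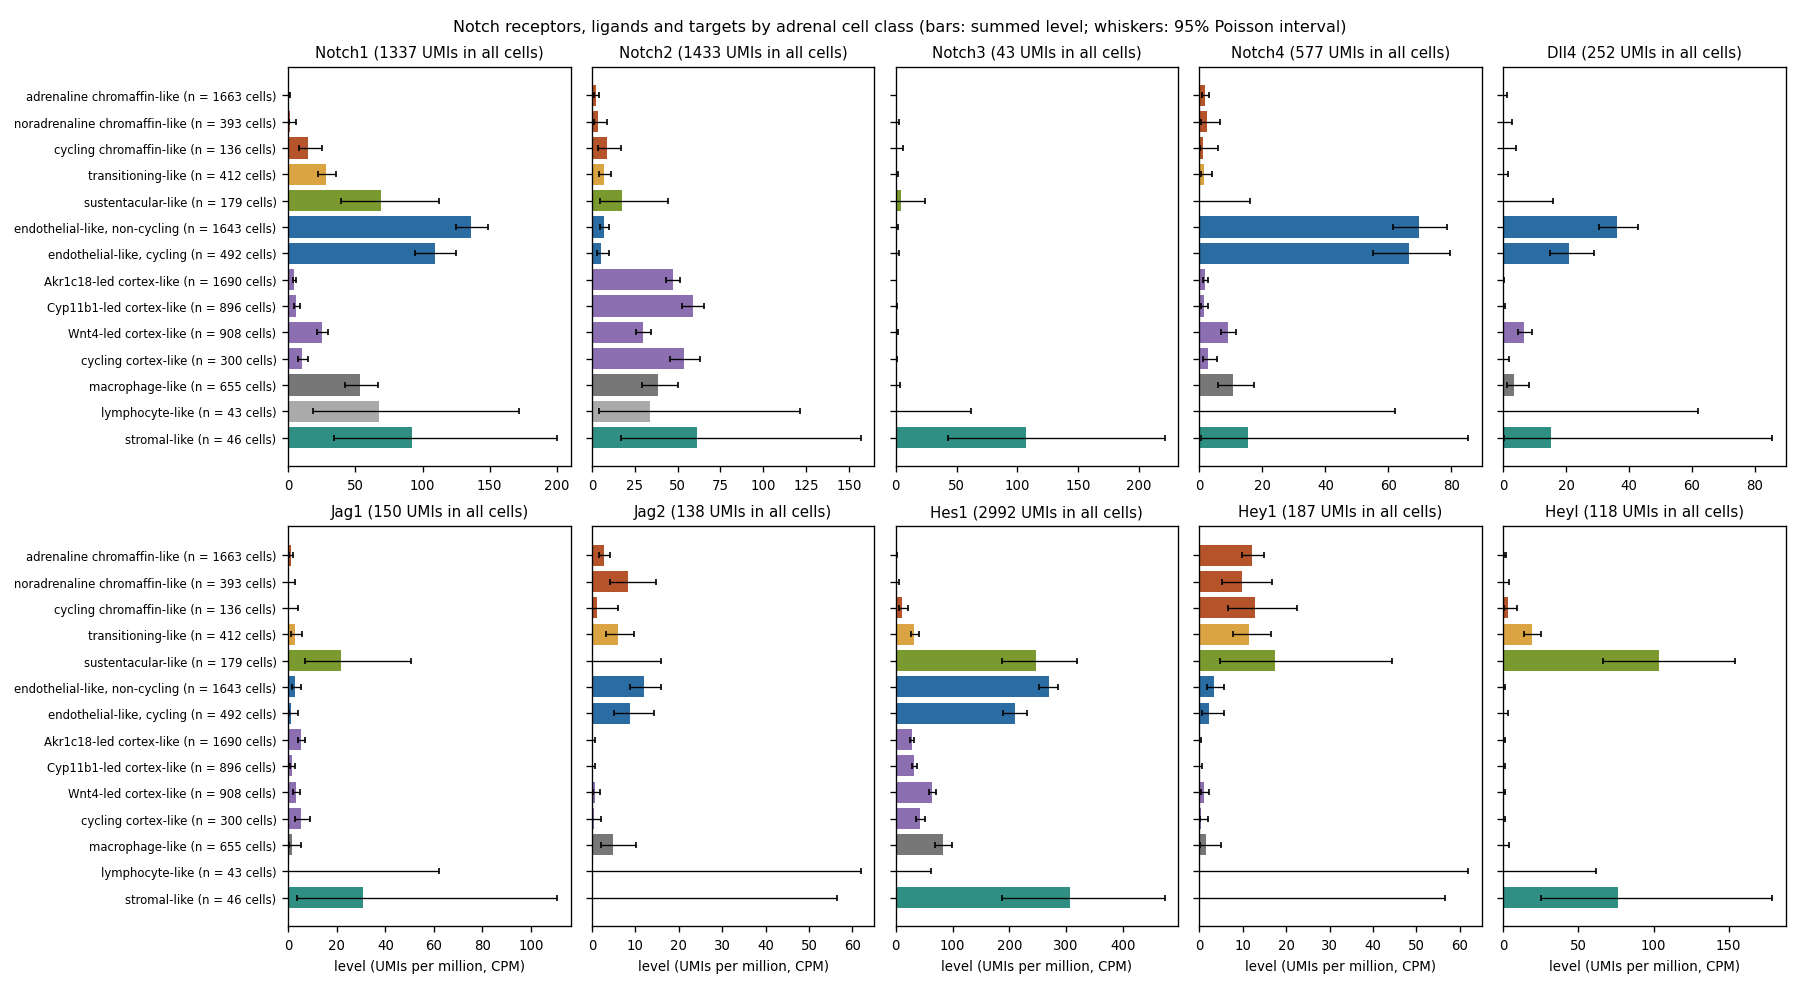
Level of each of the 10 genes (horizontal axis, CPM, each panel with its own scale starting at 0) in the 14 cell classes (vertical axis, with the number of cells), with bars for the summed level and whiskers for the 95% Poisson interval. Notch1, Notch4 and Dll4 have their longest bars in the endothelial-like classes, Notch2 is long in the cortex-like classes, Heyl in sustentacular-like and stromal-like cells, and Hey1 in chromaffin-like cells.

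Notch4 and Dll4 were high in the same classes and Notch2 in others, so the bases before their starts are shown, from RefSeq on GRCm38.p6, 5′ to 3′ on the strand of the gene. Each window shown covers the 250 bases before the RefSeq start, shortened where its end ran into the gene as GENCODE annotates it. The promoter table held 7 of the 10 members and none of the target genes Hes1, Hey1 and Heyl. The whole windows of Notch1 and Jag2 lie inside the GENCODE gene, since their RefSeq starts lie further in. That of Jag1 was cut to 126 bases. Capitals mark the letters AGGAAG or their reverse complement CTTCCT, a form of the site bound by ETS factors, which are known for their part in endothelial genes.
Notch4 (chr17:34564045-34564267, plus strand): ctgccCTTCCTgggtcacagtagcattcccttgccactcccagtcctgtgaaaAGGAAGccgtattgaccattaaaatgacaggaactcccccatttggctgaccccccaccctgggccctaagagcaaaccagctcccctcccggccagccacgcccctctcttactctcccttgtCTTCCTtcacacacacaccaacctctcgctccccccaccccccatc
Dll4 (chr2:119325534-119325783, plus strand): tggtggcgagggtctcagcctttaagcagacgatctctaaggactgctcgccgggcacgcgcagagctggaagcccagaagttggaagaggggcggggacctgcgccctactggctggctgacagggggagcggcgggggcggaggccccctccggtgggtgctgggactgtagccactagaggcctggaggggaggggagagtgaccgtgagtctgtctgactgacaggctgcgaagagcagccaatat
Notch2 (chr3:98013288-98013526, plus strand): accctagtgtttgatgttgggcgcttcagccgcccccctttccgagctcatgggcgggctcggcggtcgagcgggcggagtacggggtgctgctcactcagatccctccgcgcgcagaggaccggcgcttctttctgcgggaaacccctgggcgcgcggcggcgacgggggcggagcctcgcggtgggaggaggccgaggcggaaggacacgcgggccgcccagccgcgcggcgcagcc
On either strand, Notch4 held 3 matches to AGGAAG or CTTCCT and the other 6 members in the table held none. Of all 32851 windows of 250 bases, 29.5% held a match. The shorter ETS core GGAA was not counted, and it also stands in the Dll4 and Notch2 windows shown. The letters TGGGAA or TTCCCA, the core bound by RBPJ, were in none of the 7, against 21.6% of all windows. The target genes were not among the 7, so their windows were not searched. AAGGTCA or TGACCTT, the element of the steroidogenic factor SF1, was in none of the 7, against 4.08%. With no RBPJ or SF1 letters in its window, the matches in Notch4 could overlap no other motif searched.

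Notch1 (chr2:26457903-26516663, minus strand of mm10, the build of all positions given here) is the receptor with the widest known use among cell types. It stood at 136 CPM (125–148) in non-cycling endothelial-like cells from 526 UMIs and at 109 CPM (94.3–125) in cycling ones. Stromal-like cells held 92 CPM (33.8–200.2) from 6 UMIs, sustentacular-like cells 69.2 CPM (39.6–112) from 16 UMIs, lymphocyte-like cells 67.2 CPM (18.3–172) from 4 UMIs and macrophage-like cells 53.3 CPM (42.01–66.7) from 76 UMIs. The intervals of these 4 classes overlapped, so they have no order. Wnt4-led cortex-like cells held 3.45 CPM (1.65–6.34) without and 46.4 CPM (38.99–54.7) with endothelial-marker UMIs, as split out below. Transitioning-like cells held 28.4 CPM (22.3–35.8) and cycling chromaffin-like cells 14.96 CPM (8.18–25.1). Of the cycling chromaffin-like cells, 13.2% were called doublets, and the class held 2333 CPM of summed cortex markers against 191 CPM in the other chromaffin-like cells. Their part in the levels of this class was not tested. In adrenaline chromaffin-like cells 5 UMIs among 7323815 gave 0.683 CPM (0.222–1.59), and noradrenaline chromaffin-like cells had 2 UMIs. The receptor was therefore close to undetected in the secretory cells of the medulla. A UMI of Notch1 was found in 24.6% of endothelial-like cells at a median depth of 2004 UMIs and in 0.3405% of chromaffin-like cells at a median depth of 3007.

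Notch4 (chr17:34564268-34588503, plus strand) is a receptor known mainly from vascular endothelium. It stood at 69.7 CPM (61.6–78.6) in non-cycling and 66.6 CPM (55.2–79.5) in cycling endothelial-like cells, whose intervals overlapped. Outside these, the highest level in a class with more than 1 UMI was 10.5 CPM (5.89–17.4) in macrophage-like cells. Sustentacular-like cells had none in 231103 UMIs, which allows up to 12.98 CPM by the limit of 3 counts used for every 0 here. A UMI of Notch4 was found in 16.1% of endothelial-like and 0.778% of chromaffin-like cells.

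Notch2 (chr3:98013527-98150361, plus strand), a receptor close in sequence to Notch1, was highest elsewhere. Stromal-like cells gave 61.3 CPM (16.7–157) from 4 UMIs. It stood at 58.8 CPM (52.7–65.4) in Cyp11b1-led, 53.9 CPM (45.7–63.2) in cycling, 47.3 CPM (43.2–51.6) in Akr1c18-led and 29.7 CPM (25.5–34.5) in Wnt4-led cortex-like cells. Cyp11b1 encodes the enzyme that makes corticosterone, Akr1c18 a progesterone-degrading enzyme of the inner cortex of the mouse, and Wnt4 a ligand of the outer cortex. Among these, the Wnt4-led class lay below the other 3 without overlap. Macrophage-like cells held 38.6 CPM (29.1–50.2), against 6.52 CPM (4.59–8.98) in endothelial-like and 2.66 CPM (1.68–3.98) in chromaffin-like cells. A UMI of Notch2 was found in 24.2% of cortex-like cells at a median depth of 5327 UMIs and in 1.12% of chromaffin-like cells.

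Notch3 (chr17:32120820-32166852, minus strand) is the receptor of vascular mural cells. The stromal-like class held 107 CPM (43.2–221) from 7 UMIs in 6 of 46 cells. Each other class had at most 5 UMIs and at most 4.33 CPM. Genes with reads of their own lie over Notch1, Notch3 and Dll4 on the opposite strand, and whether the counting used strand is not given in the sources used here.

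Dll4 (chr2:119325784-119335962, plus strand) encodes the ligand of endothelial tip and arterial cells. It stood at 36.3 CPM (30.5–42.8) from 140 UMIs in non-cycling and at 20.9 CPM (14.8–28.7) from 38 UMIs in cycling endothelial-like cells, without overlap. No UMI of it was found in 7 of the 14 classes, which were the sustentacular-like, transitioning-like, noradrenaline and cycling chromaffin-like, lymphocyte-like, Akr1c18-led and Cyp11b1-led classes. It was found in 7.59% of endothelial-like and 0.146% of chromaffin-like cells.

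Jag2 (chr12:112907819-112929776, minus strand), a Jagged ligand, stood at 11.9 CPM (8.73–15.9) in non-cycling and 8.8 CPM (5.03–14.3) in cycling endothelial-like cells. Noradrenaline chromaffin-like cells, at 8.22 CPM (4.11–14.7) from 11 UMIs, and transitioning-like cells, at 5.93 CPM (3.32–9.77) from 15 UMIs, overlapped with these. Cortex-like cells held 0.281 CPM (0.113–0.578). Jag1 (chr2:137081456-137116644, minus strand), the other Jagged ligand, was found at 21.6 CPM (7.02–50.5) from 5 UMIs in sustentacular-like cells and at 5.37 CPM (4.05–6.97) from 56 UMIs in Akr1c18-led cortex-like cells. Stromal-like cells had 2 UMIs of it. Endothelial-like cells held 2.29 CPM (1.22–3.92) and chromaffin-like cells 0.924 CPM (0.399–1.82).

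Hes1 (chr16:30064384-30067796, plus strand) is a repressor that many cell types switch on in answer to Notch and to other signals. It stood at 307 CPM (187–474) in stromal-like cells from 20 UMIs, 269 CPM (253–286) in non-cycling endothelial-like cells from 1038 UMIs, 247 CPM (187–319.6) in sustentacular-like cells from 57 UMIs and 209.6 CPM (189–232) in cycling endothelial-like cells from 381 UMIs. Among these 4, the non-cycling and cycling endothelial-like classes did not overlap and all other pairs did. Macrophage-like cells held 83.5 CPM (69.2–99.9), transitioning-like cells 32.8 CPM (26.1–40.6) and the cortex-like classes between 28.1 CPM (24.96–31.5) in Akr1c18-led and 64.5 CPM (58.2–71.3) in Wnt4-led cells. Chromaffin-like cells had 7 UMIs, a level of 0.808 CPM (0.325–1.67). Among cells with at least 1000 UMIs, thinned to that depth, Hes1 was found in 21.4% of non-cycling endothelial-like, 21.1% of sustentacular-like and 4.05% of cortex-like cells. This left out 271 of 1643 non-cycling endothelial-like, 56 of 179 sustentacular-like and 16 of 3794 cortex-like cells. Over all cells, unthinned, the shares were 37.2%, 24.02% and 18.3%, beside 0.3405% of chromaffin-like cells. The thinned and unthinned shares are thus from different sets of cells.

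Heyl (chr4:123233556-123249875, plus strand) is a Hey family repressor best known from smooth muscle and mural cells. Sustentacular-like cells held 104 CPM (66.5–155) from 24 UMIs in 24 cells, and stromal-like cells 76.7 CPM (24.9–179) from 5 UMIs. Transitioning-like cells held 18.96 CPM (13.98–25.1) from 48 UMIs. In 2135 endothelial-like cells 1 UMI was found, a level of 0.176 CPM (0.00446–0.981). Hes1 thus had overlapping levels in endothelial-like and sustentacular-like cells, while Heyl was found in the latter and almost not in the former. A UMI of Heyl was found in 13.4% of sustentacular-like cells at a median depth of 1149 UMIs and in 0.3405% of chromaffin-like cells.

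Hey1 (chr3:8663359-8667256, minus strand), another Hey family repressor, was spread over the medulla. It stood at 12.2 CPM (9.76–14.95) in adrenaline, 9.72 CPM (5.18–16.6) in noradrenaline and 12.8 CPM (6.62–22.4) in cycling chromaffin-like cells. Transitioning-like cells held 11.5 CPM (7.67–16.5) and sustentacular-like cells 17.3 CPM (4.72–44.3) from 4 UMIs, and all 5 intervals overlapped. Endothelial-like cells held 2.99 CPM (1.74–4.79) and cortex-like cells 0.281 CPM (0.113–0.578). A UMI of Hey1 was found in 4.52% of chromaffin-like and 0.158% of cortex-like cells. Within adrenaline cells, the sub-clusters led by Pnmt, Olfm3 and Atf3 held 10.98 (6.88–16.6), 13.02 (10.02–16.6) and 7.43 (1.53–21.7) CPM, which overlapped.

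For comparisons between groups of cells, a gene was called higher or lower when its CPM differed by at least 2-fold, among genes with at least 50 UMIs in the groups together. A gene rare in 1 group could reach this limit only through the group where it was high. Counts of members called are therefore a description. In endothelial-like cells against all other named cells, 9 of the 10 members could be compared and 5 were higher, where 15.9% of all genes were. Dll4 was higher by 24.4-fold (17.7–34.04), Notch4 by 21.4-fold (17.4–26.3), Notch1 by 10.9-fold (9.65–12.2), Hes1 by 7.58-fold (7.02–8.18) and Jag2 by 6.96-fold (4.805–10.1). Of the UMIs in the other named cells, 40 of 50 for Dll4 and 50 of 125 for Notch4 lay in Wnt4-led cells with endothelial-marker UMIs. So did 140 of 456 for Notch1, 296 of 1281 for Hes1 and 4 of 61 for Jag2. These cells are split out below, and their part in the ratios was not tested. Lower were 2, where 29.4% of all genes were: Notch2, with a ratio of 0.199 (0.139–0.275), and Heyl, with a ratio of 0.0713 (0.00179–0.407). Jag1, at 0.729 (0.377–1.29), and Hey1, at 0.746 (0.424–1.23), passed neither limit. The median ratio of the compared members was 6.96, against 0.896 over all genes compared.

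In cycling endothelial-like cells Dll4, Hes1 and Notch1 were at lower levels than in non-cycling ones, by less than 2-fold and with intervals that exclude 1. None of the 5 members compared passed the 2-fold limit, where 4.06% of all genes were higher and 1.38% lower. Dll4 came closest, at a ratio of 0.576 (0.391–0.8296), and Hes1 stood at 0.779 (0.691–0.877), Notch1 at 0.799 (0.675–0.942) and Notch4 at 0.955 (0.764–1.19). The cycling cells had a median depth of 3158.5 UMIs and the non-cycling cells of 1744. Lower levels were not particular to these members. The summed endothelial markers stood at 7275 CPM in cycling and 9130 CPM in non-cycling cells. The median ratio of the compared members was 0.779 and that of other pathway genes 0.794, against 0.963 over all genes compared. The part of a general drop of endothelial genes was not tested.

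Endothelial-like cells were also clustered by themselves with the Notch pathway genes left out. The non-cycling cells split into 816 cells of a median depth of 2782 UMIs, 622 cells of a median depth of 1115.5 and 205 cells led by Mgp, Fbln2, Ccn2, Col14a1 and Eln, mostly genes of the extracellular matrix. Too few markers of any vessel type were detected in the last group to name it, so it is called Mgp-led. Lyve1, a lymphatic marker, was also among its leading genes. Its summed arterial markers stood at 748 CPM against 256 CPM in the other non-cycling cells. Of the 748 CPM, 444 CPM came from Fbln2 alone, which stood at 19.9 CPM in all other endothelial-like cells. The sum therefore does not show that the arterial list as a whole was raised. Dll4 was lower in the Mgp-led cells, the 1 call among 4 members compared, where 6.91% of all genes were lower and 3.48% higher. The level of Dll4 was 11.5 CPM (3.12–29.3) from 4 UMIs against 38.8 CPM (32.5–45.8) from 136 UMIs in the other non-cycling cells, a ratio of 0.296 (0.0794–0.775). Notch1 was at 195 CPM (151–247) against 131 CPM (119–143), a ratio of 1.49 (1.14–1.93) that did not reach 2-fold. Notch4 was at a ratio of 1.12 (0.724–1.67) and Hes1 at 0.897 (0.7097–1.12). This comparison was chosen after the data were seen.

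**Figure D2:**
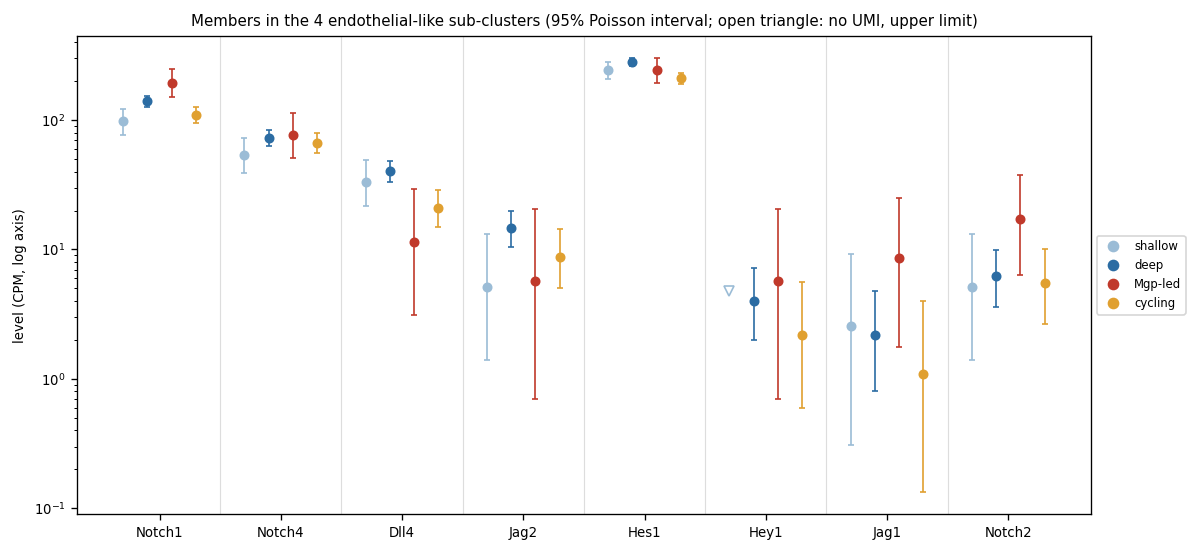
Level of 8 members (horizontal axis) in CPM (vertical axis, log scale) in the shallow, deep and Mgp-led non-cycling sub-clusters and in cycling endothelial-like cells, as points with 95% Poisson intervals and an open triangle at the upper limit where no UMI was found. Dll4 is lowest in the Mgp-led cells, at 11.5 CPM, while Notch1 is highest there, at 195 CPM, and Hes1 lies between 209.6 and 279.8 CPM in all 4.

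No endothelial sub-cluster showed 3 of the 8 arterial markers, so no arterial-like class could be named. By their own UMIs, 20 endothelial-like cells held 3 or more of these markers, a rule set after the data were seen. Notch1 was higher in them, the 1 call among 5 members compared, where 9.3% of all genes were higher and 8.1% lower. Its level was 308 CPM (210.4–434) from 32 UMIs against 124 CPM (115–134) in the other 2115 cells, a ratio of 2.48 (1.68–3.53). Dll4 was at a ratio of 1.87 (0.676–4.15) from 6 UMIs and Hes1 at 1.39 (0.973–1.94). The median depth of the 20 cells was 4877 UMIs against 1994, and its part in the result was not tested.

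Detection in the same cell was counted in the non-cycling endothelial-like class, with cells thinned to 1000 UMIs and shallower cells left out. Hes1 was found in 30% (17.9–44.6) of 50 cells with a UMI of Dll4 and in 21.03% (18.9–23.3) of 1322 cells without, with exact binomial intervals. Notch1 was found in 12% (4.53–24.3) of cells with Dll4 and 12.4% (10.7–14.3) of those without. Notch4 was found in 8.24% (4.58–13.4) of cells with Notch1 and 7.82% (6.37–9.49) of those without. The intervals overlapped in each of these pairs. In sustentacular-like cells thinned alike, Hes1 was found in 2 of 17 cells with Heyl and in 24 of 106 without.

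In the medulla, Hes1 was far higher in sustentacular-like than in chromaffin-like cells. Only 2 members reached 50 UMIs in this comparison and 1 was higher, where 12.4% of all genes were higher and 19.4% lower. That was Hes1, by 305-fold (139–793), from 57 and 7 UMIs, so it reached the limit through the group where it was high. Hey1 was at a ratio of 1.47 (0.393–3.88). Below the UMI limit, Heyl was at a ratio of 128 (53.7–353) from 24 and 7 UMIs and Notch1 at 85.7 (33.3–246) from 16 and 7 UMIs. Jag1 was at 23.4 (6.03–81.2) from 5 and 8 UMIs and Notch2 at 6.52 (1.64–19.1) from 4 and 23 UMIs. Notch4, Dll4 and Jag2 had no UMI in sustentacular-like cells, where the limit of 12.98 CPM lay above their chromaffin level.

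Transitioning-like cells lay between. Notch1, Hes1 and Heyl, all 3 members compared, were higher in sustentacular-like than in transitioning-like cells, where 10.8% of all genes were higher and 22% lower. The ratios were 2.43 (1.32–4.23), 7.52 (5.27–10.7) and 5.48 (3.21–9.12). The same genes were the 3 higher in transitioning-like than in chromaffin-like cells, of 4 members compared, where 5.8% of all genes were higher and 2.16% lower. Here the ratios were 35.2 (16.2–90.6), 40.6 (18.8–104) and 23.5 (10.6–61.5), and Hey1 was at 0.973 (0.621–1.48). Each of the 3 had 7 UMIs in chromaffin-like cells, so it could be compared only through the group where it was high. As a mean over cells in place of summed UMIs, Hes1 in transitioning-like cells was at 50.6 CPM. Summed sustentacular markers in transitioning-like cells stood at 14.6% of their sustentacular level, and 0.485% of the cells were called doublets. The part of mixed droplets in these values was not tested. Both comparisons were chosen after the data were seen.

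Between the secretory types only Hey1 reached 50 UMIs. It passed no limit in noradrenaline against adrenaline chromaffin-like cells, at 0.7998 (0.4099–1.44), where 4.49% of all genes were higher and 6.63% lower. Jag2 was at 8.22 against 2.73 CPM, a ratio of 3.01 (1.303–6.59), from 11 and 20 UMIs.

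**Figure D3:**
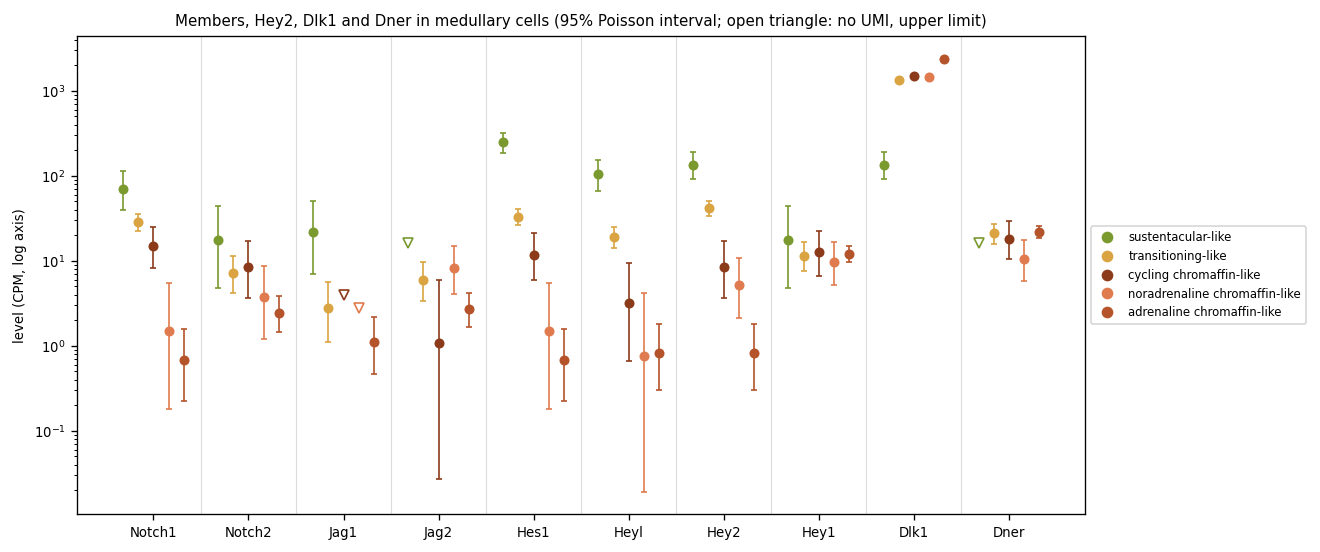
Level of 7 members and of Hey2, Dlk1 and Dner (horizontal axis) in CPM (vertical axis, log scale) in 5 medullary classes, as points with 95% Poisson intervals and an open triangle at the upper limit where no UMI was found. Notch1, Hes1, Heyl and Hey2 step down from sustentacular-like over transitioning-like to adrenaline and noradrenaline chromaffin-like cells. The Notch1 interval of cycling chromaffin-like cells overlaps that of transitioning-like cells. The intervals of Hey1 overlap across the 5 classes, and Dlk1 is lowest in sustentacular-like cells.

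Against endothelial-like cells, sustentacular-like cells had no member higher and 2 lower of 5 compared, where 10.6% of all genes were higher and 23.2% lower. Hes1 was at a ratio of 0.987 (0.743–1.29) and Notch1 at 0.543 (0.309–0.888). Notch4 was at least 5.29-fold and Dll4 at least 2.42-fold lower, with no UMI of either. Jag2 also had none, but the limit of 12.98 CPM lay above its endothelial level, so a difference was not detectable at this depth. Chromaffin-like cells had 1 member higher than endothelial-like cells, Hey1 by 3.93-fold (2.34–7.01), and 6 lower of 7 compared, where 23.3% and 21.7% of all genes were. Of the 6, Notch1, Hes1, Dll4 and Notch4 had 7, 7, 3 and 16 UMIs in chromaffin-like cells and could be compared only through endothelial-like cells. Both comparisons were chosen after the data were seen.

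Of 6 members compared between cortex-like and chromaffin-like cells, 4 were higher, where 22.1% of all genes were: Hes1 by 48.8-fold (23.6–122), Notch2 by 17.5-fold (11.6–27.7), Notch1 by 12.95-fold (6.197–32.5) and Jag1 by 4.26-fold (2.08–10.1). Hey1 was lower, at 0.0238 (0.00935–0.0509), where 21.9% of all genes were. Of the 261 Notch1 UMIs and 984 Hes1 UMIs of cortex-like cells, 140 and 296 lay in 359 Wnt4-led cells with UMIs of endothelial markers. These cells are split out below, and their part in the Notch1 and Hes1 ratios was not tested. Within the cortex, Jag1 was lower in Cyp11b1-led than in Akr1c18-led cells, with 9 against 56 UMIs and a ratio of 0.291 (0.126–0.593). It was the 1 call among 4 members, where 5.49% of all genes were lower and 8.15% higher. Notch2 was at 1.24 (1.08–1.43) and Hes1 at 1.17 (0.967–1.41). Both comparisons were chosen after the data were seen.

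The Wnt4-led cells stood above the Akr1c18-led and Cyp11b1-led cells in Notch1, Notch4, Dll4 and Hes1. They also held 11.7% of the endothelial level of the 10 endothelial markers, where those classes held 0.328% and 0.498%, and 10.6% of them were called doublets. Splitting them after the data were seen gave 549 cells without a UMI of any of these markers and 359 with 1 or more, at median depths of 3926 and 7558 UMIs. The part of this difference in depth was not tested. Dll4 had 0 UMIs in cells without and 40 in cells with. Notch1 was at 3.45 CPM (1.65–6.34) without and 46.4 CPM (38.99–54.7) with, and Notch4 at 1.03 CPM (0.213–3.02) and 16.6 CPM (12.3–21.8). Hes1 was at 29.6 CPM (23.7–36.6) without, within the range of the Akr1c18-led and Cyp11b1-led classes, and at 98.01 CPM (87.2–109.8) with. Notch2 was at 31.02 CPM (24.9–38.1) without and 28.5 CPM (22.8–35.2) with.

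In macrophage-like cells Notch2 was the 1 member higher than in endothelial-like cells, by 5.92-fold (3.83–9.24), and 5 of 6 compared were lower, where 10.4% and 21.2% of all genes were. These cells held 11.4% of the endothelial level of the endothelial markers, and 11.5% of them were called doublets. The 543 cells without such a UMI had a median depth of 1639 UMIs and the 112 with one of 2541. In the cells without, Notch1 stood at 40.9 CPM (29.6–55.1), Notch2 at 38.97 CPM (27.97–52.9) and Hes1 at 56.1 CPM (42.7–72.3), Notch4 had 1 UMI and Dll4 0. In the cells with one, Notch1 stood at 88.4 CPM (60.9–124), Notch2 at 37.5 CPM (20.5–62.9) and Hes1 at 161 CPM (123–207). The comparison and the split were chosen after the data were seen.

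**Figure D4:**
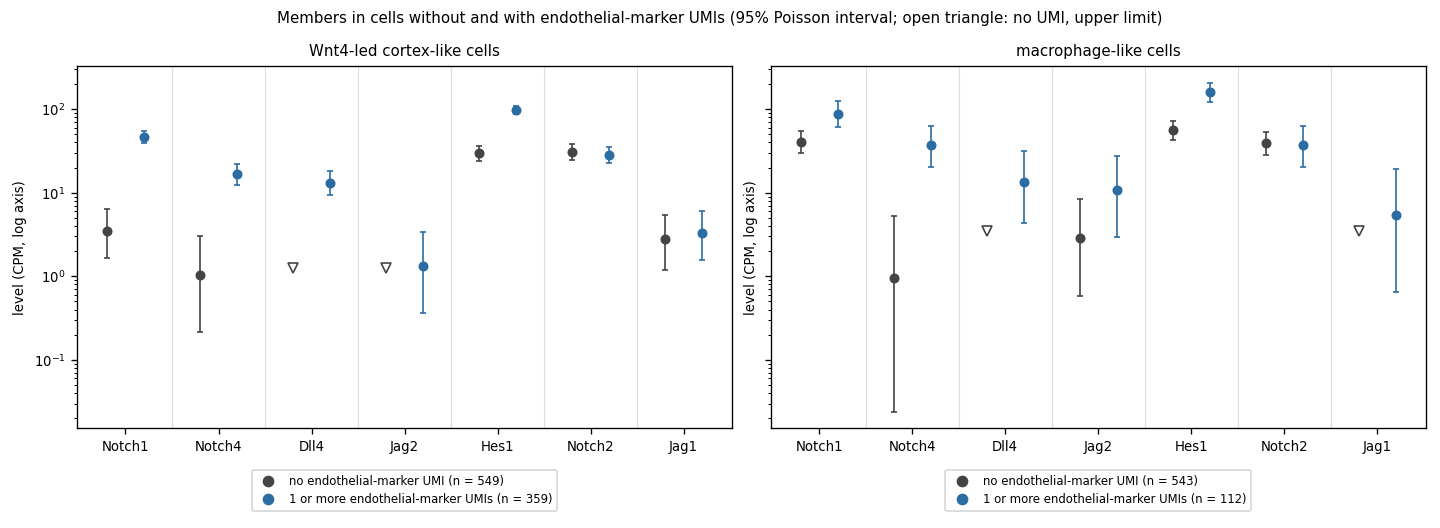
Level of 7 members (horizontal axis) in CPM (vertical axis, log scale) in Wnt4-led cortex-like cells (left) and macrophage-like cells (right), split into cells without (black) and with (blue) a UMI of the 10 endothelial markers, with 95% Poisson intervals and open triangles at the upper limit where no UMI was found. Notch4 and Dll4 drop away in cells without such a UMI in both panels, while the intervals of Notch2 overlap.

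The 46 stromal-like cells, with Mgp, Tagln and Dcn among their leading genes, showed 4 of 7 fibroblast and 4 of 11 mural markers. Against endothelial-like cells, 2 of 5 members compared were lower and none higher, where 12.6% of all genes were lower and 13.1% higher. They were Notch4, at 0.223 (0.00564–1.25), and Dll4, at 0.489 (0.0123–2.76), with 1 UMI each and intervals that include 1. Hes1 was at 1.23 (0.747–1.902). Of the UMIs of Notch3, 6 lay in the 32 cells with more fibroblast-marker than mural-marker UMIs and 1 in the 11 cells with the opposite. The mural marker Ndufa4l2 was left out of this split. The levels were 123 CPM in the 32 cells and 72.8 CPM in the 11, a ratio of 0.592 (0.0129–4.88) for the 11 that includes 1. No member reached 50 UMIs between these groups, where 6.21% of all genes were higher and 13.7% lower in the 11 cells. Against sustentacular-like cells only Hes1 could be compared, at 1.24 (0.708–2.101), and it passed no limit, where 8.12% of all genes were higher and 17.5% lower. Sustentacular markers stood at 11.4% of the sustentacular level and endothelial markers at 13.1% of the endothelial level, and their part in Heyl and Hes1 was not tested. The comparisons with other classes and the split were chosen after the data were seen.

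Another 44 genes of the pathway were read from lists of other ligands and targets, sugar-adding enzymes, proteases, nuclear factors and regulators of turnover. In endothelial-like cells against all others, 10 of 41 compared were higher and 11 lower, where 15.9% and 29.4% of all genes were. The median ratio of the 41 was 0.965, against 0.896 over all genes compared. Among the 11 lower were 3 of 4 other ligands, 2 of 3 other targets and 5 of 13 regulators of turnover. Among the 10 higher were the ligand Dll1, by 19.04-fold (11.7–32.1), and the target and feedback inhibitor Nrarp, by 28.7-fold (17.5–49.4). The fringe enzymes Lfng, by 26.1-fold (20.2–33.9), and Mfng, by 16.4-fold (13.5–20), which add sugars to receptors and alter their choice of ligand, were higher too, as was the protease Adam10, by 4.77-fold (4.42–5.14). In cycling against non-cycling endothelial-like cells none of 29 passed, where 4.06% and 1.38% of all genes did.

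Hey2, a further Hey gene, had the order of Heyl in the medulla. It was at 134 CPM (91.1–190.4) in sustentacular-like, 41.5 CPM (33.9–50.2) in transitioning-like and 0.819 CPM (0.301–1.78) in adrenaline chromaffin-like cells, against 0.528 CPM (0.109–1.54) in endothelial-like cells. Hes6, a relative of Hes1 known to counter it, was at 191 CPM (179.7–202) in Cyp11b1-led cortex-like and 25.3 CPM (22.05–28.9) in chromaffin-like cells. In sustentacular-like against chromaffin-like cells 7 of 33 other pathway genes were higher, among them the proteases Adam10, by 4.53-fold (3.08–6.49), and Adam17, by 4.83-fold (2.73–8.03), and 8 were lower, where 12.4% and 19.4% of all genes were.

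The non-canonical ligands lay in chromaffin-like cells. Dlk1, which lacks the domain that activates receptors, stood at 2382 CPM (2347–2418) in adrenaline and 1438 CPM (1375–1504) in noradrenaline cells, against 134 CPM (91.1–190.4) in sustentacular-like and 10.9 CPM (8.37–14) in endothelial-like cells. Dner, a neuronal ligand, was at 21.98 CPM (18.7–25.7) in adrenaline and 10.5 CPM (5.72–17.6) in noradrenaline cells and had no UMI in endothelial-like cells. Dll3, an inhibitor inside the cell, was at 14.2 CPM (8.55–22.2) in noradrenaline, 9.48 CPM (6.07–14.1) in transitioning-like and 1.64 CPM (0.847–2.86) in adrenaline cells. In noradrenaline against adrenaline cells, Mfng was higher, by 10.1-fold (5.73–18.4), and Dner and Maml2, a nuclear co-activator, were lower, of 33 compared, where 4.49% of all genes were higher and 6.63% lower.

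The genes whose log2(CPM + 10) followed each member most closely over the 14 classes are a description, since all classes share the library. For Notch4 they were Ptpru (Pearson r = 0.995), Hecw2 and Col13a1, and for Dll4 Exoc3l4 (r = 0.994), Stap2 and Cldn15. For Hes1 they were the basement membrane collagens Col4a2 (r = 0.976) and Col4a1, then Wwtr1. For Notch2 they were Scpep1 (r = 0.918), Mrap, the accessory protein of the ACTH receptor, and Ube2f, and for Notch1 H2-K1 (r = 0.936), Rcsd1 and Cnn2. For Notch3 they were Tagln (r = 0.994), Bicc1 and Col4a4, and for Heyl Col3a1 (r = 0.987) and Rarres2. Notch3 was above 4.33 CPM in the stromal-like class alone, so its r rests mainly on that class. For Hey1 they were Ccdc112 (r = 0.967), Camk2b and Zfp882, for Jag1 Il34 (r = 0.9597), Prss23 and Ltbp1, and for Jag2 Bbc3 (r = 0.9504), Rbfox3 and Meox1.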

How the data were processed

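Cells of trimmed P15 mouse adrenal medulla were captured as 1 droplet-based 3′ library. Per the submitters' processing notes the authors used Cell Ranger 4.0.0 and mm10, and they deposited a filtered matrix of raw UMI counts per gene and barcode. From these counts, genes in at least 3 barcodes and barcodes with 500 to 5000 genes and at most 20% mitochondrial UMIs were kept and clustered with Seurat 5.3.0 in R 4.3.3 (2000 variable features, 10 principal components, resolution 0.4). Medullary cells were clustered again, and endothelial and stromal cells again without the pathway genes. A class was named when at least 3 listed markers were found in 50% of its cells (25% for lists of low genes). Scrublet in scanpy 1.11.5 called 669 doublets, which were kept. Levels, shares, ratios and exact intervals were computed in Python 3.11.15 with scipy 1.17.1. The genes named are the members, the listed pathway genes, the cell class markers and, for each member, the 3 genes with the closest levels over the classes among those with at least 200 UMIs. A few genes that meet these rules are not reported here. Other genes that lead a cluster were named after their values were seen. The members and all lists were chosen with earlier results of these data known.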

Additional observations from a re-analysis of the deposited data

How the results depend on the processing

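Alternatives were other resolutions (0.2 and 0.8), 30 principal components, pathway genes left out of the clustering features, doublet calls left out, stricter cell limits (a minimum of 1000 genes, mitochondrial UMIs up to 10%, 6999 cells), the mean over cells and other detection rules. No ratio changed direction. Of 118 recomputed levels 114 stayed within their counting interval, and of 47 ratios 46 did. These counts include values that an alternative could not move. No sustentacular-like and no adrenaline or noradrenaline chromaffin-like cell was called a doublet, so leaving out doublet calls returned the same levels there. Notch2 in cortex-like cells was at 50.9 CPM as a mean over cells, against 46.5. Hes1 in transitioning-like cells was at 50.6 CPM as a mean over cells, against 32.8, and in cortex-like cells at 32.1 CPM at resolution 0.8 and 33.7 CPM under the stricter limits, against 39.5. The ratio of Dll4 in Mgp-led to other non-cycling endothelial-like cells was 0 under the stricter limits, which left 62 Mgp-led cells, against 0.296. Shares of cells depended on depth: 12 of 18 left their interval when cells were thinned to 1000 UMIs, and all 18 when 2 UMIs were required. Thinning also left out the cells with fewer than 1000 UMIs. No stromal-like class was found at resolution 0.2 or under the stricter limits, and no sustentacular-like class under the latter, so these values could not be recomputed there. The planned arterial-like class could not be made from clusters under the main setting. No paired analysis was possible because there was 1 library. Depth limits the lymphocyte-like, stromal-like and sustentacular-like classes most, where 3 counts are 50.4, 46 and 12.98 CPM.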

Other observations

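The 683 cells in no class, of which 61.2% were called doublets, held 22 of the 43 UMIs of Notch3. Of these, 20 lay in 43 cells that showed markers of arterial, endothelial, fibroblast and mural cells together, none of them called a doublet. There Notch3 stood at 91.2 CPM (55.7–141), Notch1 at 182 CPM (130.3–248), Dll4 at 36.5 CPM (15.7–71.8) and Hes1 at 242 CPM (181–316). In 33 cells with both endothelial and sustentacular markers, of which 21.2% were called doublets, Notch1 stood at 205 CPM (119.7–329) and Hes1 at 242 CPM (148–373).

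Psenen, a γ-secretase subunit, was found in every class, at 295 CPM (284–307) in chromaffin-like, 247 CPM (241–253) in cortex-like, 202 CPM (191–214) in endothelial-like and 186 CPM (135–251) in sustentacular-like cells. Rbpj, the DNA-binding partner of the receptors, was higher in macrophage-like than in endothelial-like cells, by 2.35-fold (1.904–2.89). Hes5, a target known from neural stem cells, had 1 UMI in endothelial-like cells and none in sustentacular-like cells, where 3 counts are 12.98 CPM.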
